A study of Rattus norvegicus with 9 samples.

Results

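The bone transcripts of 10 cytokines were followed in ovariectomised rats: Tnf, Il1a, Il1b, Il1rn, Il6, Il10, Il15, Il18, Tnfsf13b and Lif. They were taken by gene symbol from the 23026 genes in the deposited tables, and all 10 were found. The 9 libraries came from bone of female Sprague-Dawley rats, bought at 8 weeks of age, with 3 libraries in each of 3 groups. Sham rats underwent surgery in which fat was removed and the ovaries were kept, OVX rats lost both ovaries, and OVX-AS-IV-High rats lost both ovaries and were then given astragaloside IV (AS-IV), a saponin of Astragalus root, at 80 mg/kg. Gavage began 6 weeks after surgery in every group and lasted 8 weeks, and the Sham and OVX rats received only the vehicle, CMC-Na. The labels write 1%, 2% and 3% CMC-Na for Sham replicates 1, 2 and 3 and 1% for OVX, and all Sham libraries were treated as 1 group here. No group of sham-operated rats received AS-IV, so the agent was seen only without ovaries.

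Cytokines are secreted proteins that carry signals between immune, stromal and bone cells. The interleukin-1 pair, Il1a and Il1b, and Tnf activate NF-κB in the cells that bind them, and they promote the formation of osteoclasts, the cells that resorb bone. Il1rn encodes the antagonist that occupies the interleukin-1 receptor without signalling. Il6 and Lif signal through the shared receptor chain gp130, Il15 through chains it shares with interleukin-2, and Il10 restrains inflammatory cytokine production. Loss of oestrogen has long been linked to inflammatory cytokines in bone marrow, which is why these transcripts are of interest after ovariectomy.

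The start regions of 4 of these genes are shown because the measurements turn on them: Il1rn and Il1b had the highest levels, Il15 was below Sham in every ovariectomised library, and Il6 is the textbook inducible cytokine, near the limit of detection here. RefSeq sequences (assembly GRCr8, 250 bases before to 50 bases after the start) were at hand for 8 of the 10 genes, all but Il10 and Lif. They are Il1rn at chr3:27520072-27520371 on the plus strand, Il1b at chr3:137036532-137036831 on the minus strand, Il15 at chr19:42544456-42544755 on the plus strand and Il6 at chr4:5894526-5894825 on the minus strand. Each is written along its own gene, and capitals mark the matches to the motifs listed after them.
Il1rn: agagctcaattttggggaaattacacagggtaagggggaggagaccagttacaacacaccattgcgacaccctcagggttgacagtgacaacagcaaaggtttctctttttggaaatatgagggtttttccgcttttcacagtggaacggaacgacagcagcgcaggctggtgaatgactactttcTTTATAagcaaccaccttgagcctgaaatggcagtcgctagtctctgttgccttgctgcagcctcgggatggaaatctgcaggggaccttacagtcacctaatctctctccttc
Il1b: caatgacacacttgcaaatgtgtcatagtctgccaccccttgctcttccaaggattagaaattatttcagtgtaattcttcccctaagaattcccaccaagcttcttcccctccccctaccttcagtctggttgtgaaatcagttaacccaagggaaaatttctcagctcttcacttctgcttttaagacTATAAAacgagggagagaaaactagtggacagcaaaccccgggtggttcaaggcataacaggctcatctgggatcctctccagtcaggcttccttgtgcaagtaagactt
Il15: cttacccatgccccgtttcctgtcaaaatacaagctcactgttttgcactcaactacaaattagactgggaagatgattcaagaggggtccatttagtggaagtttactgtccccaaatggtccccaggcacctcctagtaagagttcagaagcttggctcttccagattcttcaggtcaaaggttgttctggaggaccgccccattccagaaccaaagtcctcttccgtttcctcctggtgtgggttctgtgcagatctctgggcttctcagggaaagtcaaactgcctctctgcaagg
Il6: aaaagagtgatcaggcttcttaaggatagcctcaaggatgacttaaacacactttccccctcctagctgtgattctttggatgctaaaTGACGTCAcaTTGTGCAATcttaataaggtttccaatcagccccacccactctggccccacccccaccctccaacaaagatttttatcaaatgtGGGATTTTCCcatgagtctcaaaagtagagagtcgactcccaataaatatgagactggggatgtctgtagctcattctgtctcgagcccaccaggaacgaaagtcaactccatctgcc

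The motifs searched on both strands were the TATA box TATAAA (found in 14.2% of 33469 RefSeq promoters of this length), the AP-1 site TGACTCA or TGAGTCA (4.63%), the NF-κB consensus (4.18%), the cAMP response element TGACGTCA (1.83%), the C/EBP site TTNNGCAAT (2.33%), the PU.1 core GAGGAAG (12.4%), the interferon-stimulated response element GAAANNGAAA (3.92%) and the oestrogen response element GGTCANNNTGACC (0.0269%). Counted from the start, Il1b held a TATA box from -60 to -55, and Il1rn held the same letters on the other strand from -64 to -59. Il6 held a cAMP response element from -162 to -155, a C/EBP site from -152 to -144 and an NF-κB consensus from -68 to -59. Il15 and Il18 held none of the letters searched. Il1a held an AP-1 site from -12 to -6, a TATA box from -32 to -27 and a PU.1 core from -41 to -35. It also held the TATA letters on the other strand from -237 to -232. Tnf held a TATA box from -46 to -41 and, on the other strand, a PU.1 core from -135 to -129. Tnfsf13b held an interferon-stimulated response element from -20 to -11 and a C/EBP site from 3 to 11. Within these windows 0 of the 8 promoters held the oestrogen response element. A match describes letters only and was not tested as a binding site.

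Total counts lay between 34874880 and 37298250 per library, so 3 counts, taken as the limit of detection, correspond to about 0.08 CPM. The tissue carried the transcripts of bone and of marrow: Bglap, the osteoblast product osteocalcin, ranged from 211 to 955 CPM, and S100a8, a neutrophil protein, from 3111 to 5462 CPM over the 9 libraries. The summed CPM of 10 skeletal muscle genes ran from 654 to 10666. All 10 had a negative log2FC in OVX vs. Sham (median -1.12, unadjusted p under 0.05 in 0, against 8.28% of all genes downward). In bulk bone, fewer cells of a type and less RNA per cell cannot be told apart.

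The 10 cytokines spanned a wide range of levels. Per length, Il1rn led with 19.3 ± 1.90 FPKM and Il1b followed with 17.4 ± 3.24 FPKM (mean ± SD of all 9 libraries). These levels exceeded those of 83.6% and 82.0% of all genes in the tables. Il15 was next at 4.60 ± 0.912 FPKM and Il18 stood at 1.83 ± 0.447 FPKM. Then came Tnf (0.708 FPKM), Tnfsf13b (0.647), Il1a (0.556) and Lif (0.458), and last Il6 (0.111) and Il10 (0.0508). Among neighbours in this order, the 9 libraries did not overlap only between Il1b and Il15 and between Il15 and Il18. Thus the order of Il1rn and Il1b, and that of the 4 genes from Tnf to Lif, was not separated beyond the spread of the libraries.

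**Figure D1:**
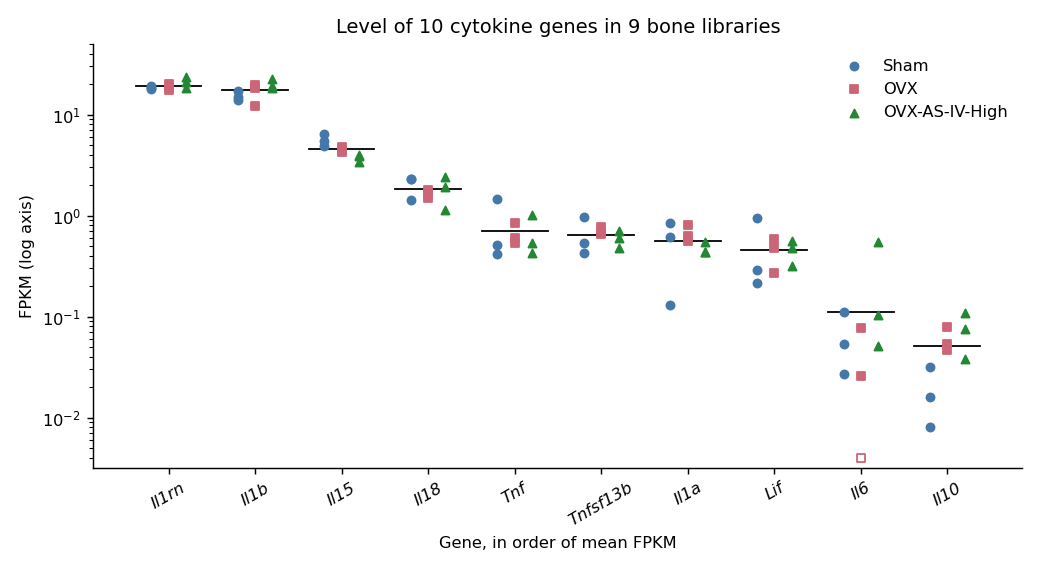
FPKM (log axis) of the 10 cytokine genes in each of the 9 libraries, with the mean of all 9 as a black line and groups told apart by colour and shape; the single value of 0, Il6 in OVX replicate 1, is the open square at the lower edge. Il1rn and Il1b lie above 10 FPKM in every library, whereas Il6 and Il10 have means of 0.111 and 0.0508 FPKM.

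The members also differed in steadiness. The coefficient of variation of CPM over the 9 libraries was 11.1% for Il1rn, 19.1% for Il1b, 20.2% for Il15, 24.6% for Il18 and 25.2% for Tnfsf13b. It was 38.5% for Il1a, 48.9% for Tnf and for Lif, 63.9% for Il10 and 152% for Il6. At these spreads, the 95% confidence interval of the OVX vs. Sham log2FC ran from -0.26 to 0.25 for Il1rn but from -1.49 to 0.92 for Tnf.

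The comparison of OVX with Sham asks how ovariectomy altered these transcripts. Il15 was lower in OVX and Il10 was higher, each without overlap between the libraries (2 of 10 members, against 23.3% of all genes tested), while the other 8 cytokines, the classical bone-resorbing Tnf, Il1a, Il1b and Il6 among them, overlapped between the groups. After a filter on low counts, 8 of the 10 members were tested with edgeR's quasi-likelihood test, Il6 and Il10 being left out by it. Of these 8, 0 were called, a call being an absolute log2FC over 1 together with an unadjusted p under 0.05, against 3.11% of all 16874 genes tested. An unadjusted p under 0.05 alone was reached by 1 of the 8, Il15, against 16.4% of all genes. The members' log2FC ranged from -0.34 to 0.30 with a median of -0.08, beside -0.01 for all genes. After Benjamini-Hochberg adjustment over all genes, edgeR gave an adjusted p under 0.05 to 0 members and 0 genes, and DESeq2 to 0 members and 810 genes.

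The comparison of OVX-AS-IV-High with OVX asks what the agent added. Again 0 of the 8 tested members were called, against 0.83% of all genes, and 0 had an unadjusted p under 0.05, against 6.45%. Benjamini-Hochberg adjusted p-values under 0.05 numbered 0 by edgeR, and 29 genes with 0 members by DESeq2. The members' log2FC ranged from -0.44 for Il1a to 0.30 for Il1b, with a median of 0.05 beside -0.02 for all genes. Of the 10 members, 1 had libraries that did not overlap (12.7% of all genes), and that was Il15, lower still under the agent. Every interval of the 8 members included 0, and only those of Il1rn, Il1b, Il15 and Il18 excluded a 2-fold change in either direction. Against Sham, OVX-AS-IV-High also had 0 called members (3.15% of all genes), and 2 members, Il15 and Il1b, had an unadjusted p under 0.05 (17.6% of all genes). Libraries did not overlap there for 3 of 10 members, Il15, Il1b and Il10, against 19.9% of all genes. These comparisons share control libraries, so their values are given side by side and are not independent.

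**Figure D2:**
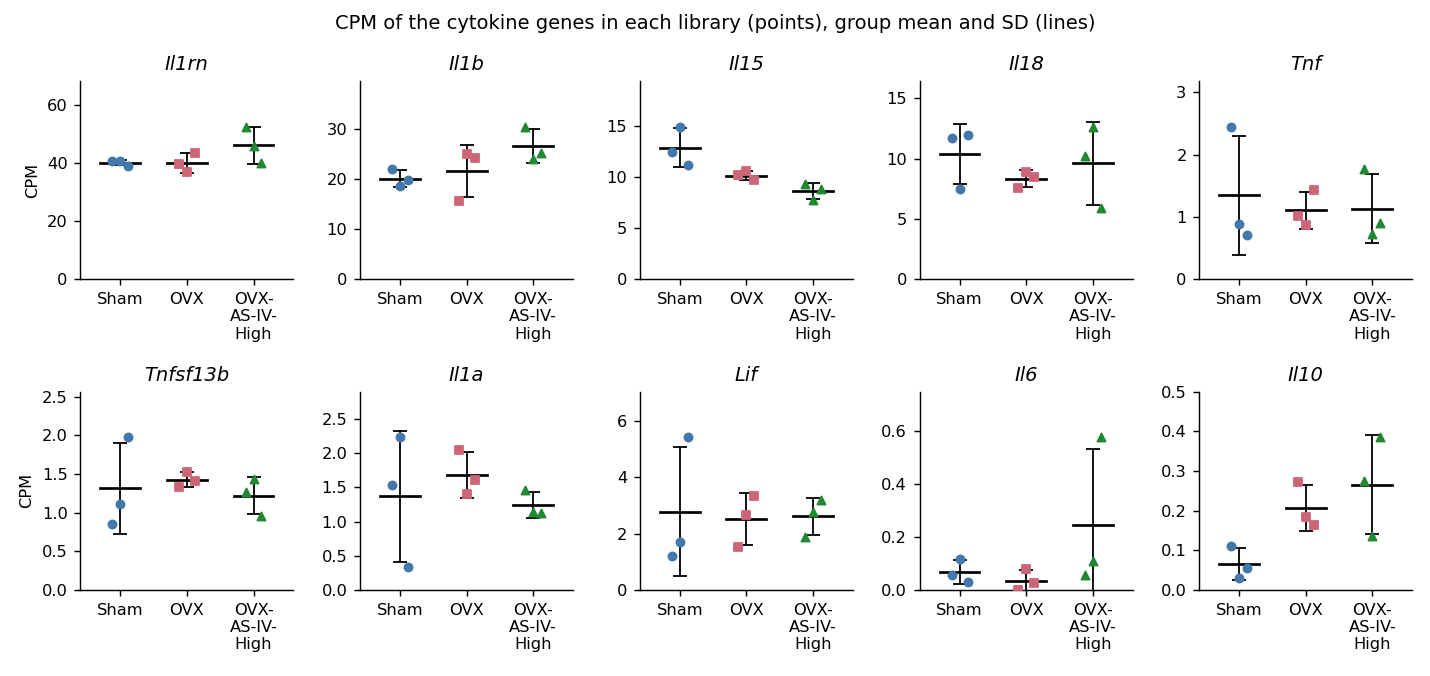
CPM of each cytokine gene in the 9 libraries, 3 a group, with the group mean and SD as lines and every axis starting at 0 (error bars that would pass below 0 are cut there). Il15 steps down from Sham to OVX to OVX-AS-IV-High without overlap, all 6 ovariectomised libraries lie above Sham for Il10, and 1 Il6 library stands at 0.577 CPM.

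Il15 supports natural killer cells and memory T cells. Its CPM (counts scaled to library size by TMM) was 12.5, 14.9 and 11.2 (Sham), 10.2, 10.6 and 9.68 (OVX) and 9.31, 7.80 and 8.85 (OVX-AS-IV-High). Every OVX library thus lay below every Sham library, and every OVX-AS-IV-High library lay below every OVX library. The group means were 12.9 ± 1.89, 10.1 ± 0.434 and 8.65 ± 0.773 CPM (SD, n = 3 each). In OVX vs. Sham the log2FC was -0.34 (SE 0.15, unadjusted p = 0.0472, adjusted p = 0.299 by edgeR). Under the agent, against OVX, it was -0.23 (SE 0.15, 95% confidence interval -0.57 to 0.11, unadjusted p = 0.165 and adjusted p = 0.907 by edgeR). The step under the agent thus had the same sign as that of ovariectomy, and its interval included 0.

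Set against Sham, Il15 in OVX-AS-IV-High had a log2FC of -0.57 (SE 0.15, unadjusted p = 0.00407, adjusted p = 0.125 by edgeR). With both ovariectomised groups pooled, all 6 Il15 values lay below all 3 Sham values, and the log2FC was -0.46 (SE 0.13, adjusted p = 0.114 by edgeR). An exact permutation test, two-sided, gave p = 0.0238 for 6 libraries against 3 and p = 0.1 in each comparison of 3 against 3, the smallest values these designs allow. It was run 56 times in all, for 10 members and 4 ratios of genes in 4 comparisons. Of all genes tested, 4.97% had all 6 libraries below Sham and 4.87% above (9.84% in all, beside 2 of the 10 members). In that pooled comparison 0 members were called, against 3.5% of all genes, and 1 had an unadjusted p under 0.05, against 21.0%; 0.101% of genes, and 0 members, had an adjusted p under 0.05 by edgeR. DESeq2 gave Il15 an adjusted p of 0.0163 against Sham under the agent and 0.0224 for both groups together, whereas it gave 0.209 for OVX vs. Sham. The log2FC was negative under every alternative in all 4 comparisons. With 1 library left out, the p in OVX vs. Sham stayed under 0.05 in 1 of 9 fits, that without Sham replicate 3. Without Sham replicate 2, the library with the highest Il15, the log2FC was -0.22 (unadjusted p = 0.209 by edgeR).

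Among the receptor chains of Il15, Il15ra, which presents the cytokine to neighbouring cells, had 1.99 ± 0.550 CPM (Sham), 1.78 ± 0.299 (OVX) and 2.19 ± 0.714 (OVX-AS-IV-High). Its log2FC was -0.16 for OVX vs. Sham (unadjusted p = 0.641 by edgeR). Il2rb, the signalling chain shared with interleukin-2, had a log2FC of 0.29 (unadjusted p = 0.411 by edgeR). Il2rg, the common gamma chain, was higher in every OVX library than in every Sham library, with 32.0 ± 9.93 against 51.6 ± 9.07 CPM (log2FC 0.69, SE 0.24, unadjusted p = 0.0177, adjusted p = 0.216 by edgeR). It was below the threshold of 1 and its p was under 0.05 in 16 of 19 alternatives. T and NK cell genes had the same direction as Il2rg in OVX vs. Sham, although their sums overlapped. The summed CPM of 11 of them ran from 199 to 258 for Sham, 233 to 333 for OVX and 247 to 291 for OVX-AS-IV-High. All 11 had a positive log2FC in OVX vs. Sham (median 0.71, 3 at an unadjusted p under 0.05, against 8.16% of all genes upward). Of them, Cd5 and Cd8a were called, against 3.11% of all genes. Under the agent, against OVX, all 11 were negative (median -0.55, 0 at an unadjusted p under 0.05, against 2.03% of all genes downward). The summed CPM of 10 B lineage genes was also higher in OVX, without overlap (1431 to 2021 for Sham and 2231 to 2397 for OVX). The part of either set of cells in the Il2rg value was not tested.

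In the comparisons with Sham, Il15 also ran opposite to the B lineage transcripts. The summed CPM of 10 B lineage genes, led by Cd79a and Cd79b of the B cell receptor, ran from 1431 to 2021 for Sham, 2231 to 2397 for OVX and 2175 to 2380 for OVX-AS-IV-High, and 7 of the 10 genes had an unadjusted p under 0.05 upward in OVX vs. Sham (8.16% of all genes). For OVX-AS-IV-High vs. OVX the direction was the same as that of Il15. There 8 of the 10 B lineage genes had a negative log2FC, with a median of -0.29. Of them, 4 had an unadjusted p under 0.05 downward by edgeR, against 2.03% of all genes. Across the 9 libraries, Pearson's r of Il15 with the B lineage sum was -0.85 (Spearman's rho -0.68), and -0.70 between deviations from the group means. With the sum of 7 adipocyte genes, which ran from 371 to 441 for Sham and from 473 to 768 in the ovariectomised groups, r was -0.76, and -0.39 between deviations. With the skeletal muscle sum r was 0.58, and 0.37 between deviations. A covariate was also fitted, the centred mean log2 CPM of the muscle genes. With it, Il15 had a log2FC of -0.30 for OVX vs. Sham (unadjusted p = 0.0878 by edgeR) and -0.52 for OVX-AS-IV-High vs. Sham (unadjusted p = 0.0142 by edgeR). These points share their libraries and are descriptions. Defining markers of neither B cells nor adipocytes were at 0, and the part of these cells in the Il15 difference was not tested.

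**Figure D3:**
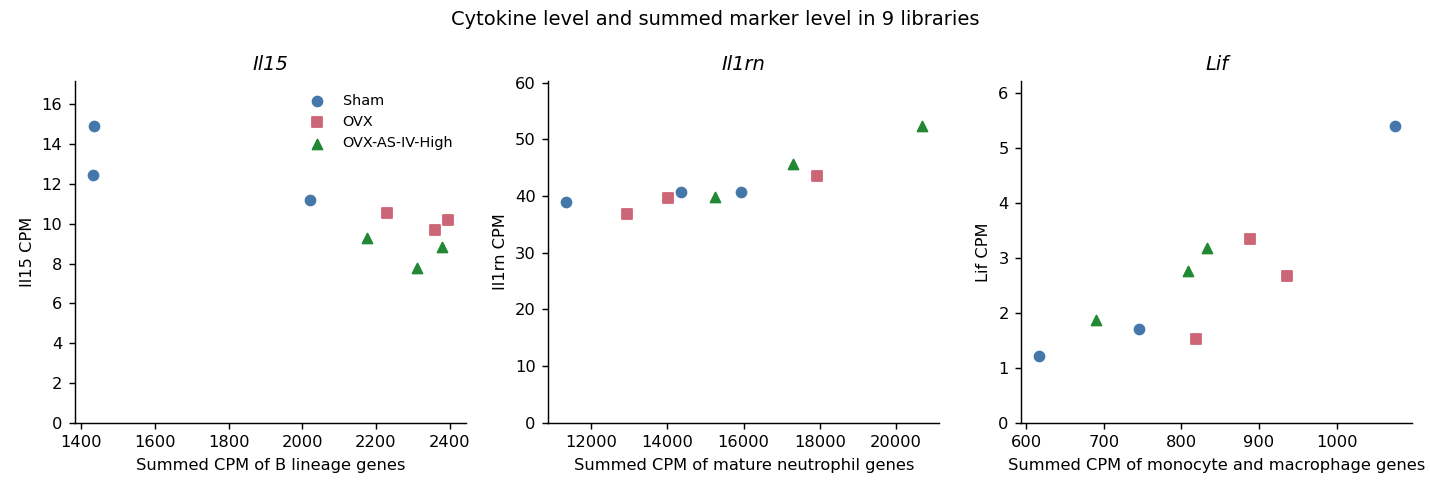
CPM of Il15, Il1rn and Lif (vertical axes, from 0) against the summed CPM of B lineage, mature neutrophil and monocyte and macrophage genes in the 9 libraries, coloured by group. The 6 libraries with B lineage sums from 2175 to 2397 have Il15 at 10.6 CPM or less, Il1rn rises with the neutrophil sum (r = 0.87), and Sham replicate 3 has the highest Lif and the highest monocyte and macrophage sum.

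Il1b encodes the secreted interleukin-1 that the inflammasome matures. Its CPM was 22.0, 18.6 and 19.8 (Sham), 15.8, 25.0 and 24.3 (OVX) and 30.5, 24.2 and 25.3 (OVX-AS-IV-High). The OVX libraries lay on both sides of Sham, while all 3 OVX-AS-IV-High libraries lay above Sham. The log2FC was 0.11 (SE 0.18, unadjusted p = 0.566 by edgeR) for OVX vs. Sham and 0.30 (SE 0.18, 95% confidence interval -0.11 to 0.70, unadjusted p = 0.130 by edgeR) for OVX-AS-IV-High vs. OVX. Between OVX-AS-IV-High and Sham it was 0.41 (SE 0.18, unadjusted p = 0.0498, adjusted p = 0.283 by edgeR). That p stayed under 0.05 in 8 of 19 alternatives. The log2FC was 0.30 without OVX-AS-IV-High replicate 1 (unadjusted p = 0.161 by edgeR). It was 0.20 with the centred mean log2 CPM of the neutrophil genes as a covariate (unadjusted p = 0.416 by edgeR). The neutrophil sum of 10 genes ran from 11339 to 15940 CPM for Sham and from 15260 to 20668 for OVX-AS-IV-High. Of the 9 tested, 4 had an unadjusted p under 0.05 upward in this comparison, against 9.17% of all genes. The part of neutrophils in the Il1b value was not tested.

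Il1rn, the natural antagonist, was the steadiest member. Its CPM was 40.7, 40.6 and 39.0 (Sham), 39.6, 36.8 and 43.5 (OVX) and 52.4, 45.7 and 39.9 (OVX-AS-IV-High). The OVX libraries surrounded Sham, and 2 of the 3 OVX-AS-IV-High libraries lay above all others. The log2FC was -0.01 (SE 0.11, unadjusted p = 0.960 by edgeR) for OVX vs. Sham and 0.20 (SE 0.11, unadjusted p = 0.105 by edgeR) for OVX-AS-IV-High vs. OVX. As a description, Il1rn tracked the neutrophil sum across the 9 libraries (r = 0.87, rho 0.95, and 0.83 between deviations from group means). Il1b did so less closely (r = 0.62, rho 0.52, deviations 0.37). With the centred mean log2 CPM of the neutrophil genes as a covariate, the log2FC of Il1rn in OVX-AS-IV-High vs. Sham went from 0.20 to -0.02. The part of neutrophils in this value was not tested.

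The balance of agonist and antagonist was read from FPKM, as a description chosen after the values were seen. The ratio of Il1b to Il1rn was 0.895, 0.757 and 0.840 (Sham), 0.658, 1.13 and 0.924 (OVX) and 0.964, 0.875 and 1.05 (OVX-AS-IV-High). The groups overlapped, and 2 of the 3 ratios of OVX and 2 of the 3 of OVX-AS-IV-High lay above every Sham ratio. Il1a, the cell-bound interleukin-1, made up little of the total, with an FPKM ratio to Il1b of 0.0357, 0.0613 and 0.00872 (Sham), 0.0663, 0.0285 and 0.0337 (OVX) and 0.0244, 0.0241 and 0.0228 (OVX-AS-IV-High). The OVX-AS-IV-High ratios lay below those of OVX and within the range of Sham.

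Il1a itself had 56, 76 and 12 counts (Sham), 75, 53 and 59 (OVX) and 53, 42 and 41 (OVX-AS-IV-High). Sham replicate 3 alone held a value under 40, and the groups overlapped. The log2FC was 0.30 (SE 0.54, unadjusted p = 0.597 by edgeR) for OVX vs. Sham and -0.44 (SE 0.54, unadjusted p = 0.442 by edgeR) for OVX-AS-IV-High vs. OVX. OVX and OVX-AS-IV-High libraries of the same number were treated as pairs, although the titles name no pairing. Between them, Il1a was lower under the agent in 3 of 3. With these pairs as a block in those libraries alone, the log2FC was -0.42 (unadjusted p = 0.198 by edgeR). Of the 10 members, 3 were lower in every pair (Il1a, Il15 and Tnfsf13b) and 1 was higher (Il6), beside 16.6% and 14.4% of all genes tested.

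Il18, an interleukin-1 relative that the inflammasome also matures and that acts on T and NK cells, had 11.7, 7.51 and 11.9 CPM for Sham. Its OVX libraries had 7.60, 8.92 and 8.52 CPM, and those under the agent 10.2, 12.6 and 5.91 CPM. All 3 OVX values lay within the Sham range, and the OVX-AS-IV-High values reached beyond it on both sides. The log2FC was -0.32 (SE 0.28, unadjusted p = 0.290 by edgeR) for OVX vs. Sham and 0.20 (SE 0.28, unadjusted p = 0.491 by edgeR) under the agent, the latter becoming -0.05 without OVX-AS-IV-High replicate 2.

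**Figure D4:**
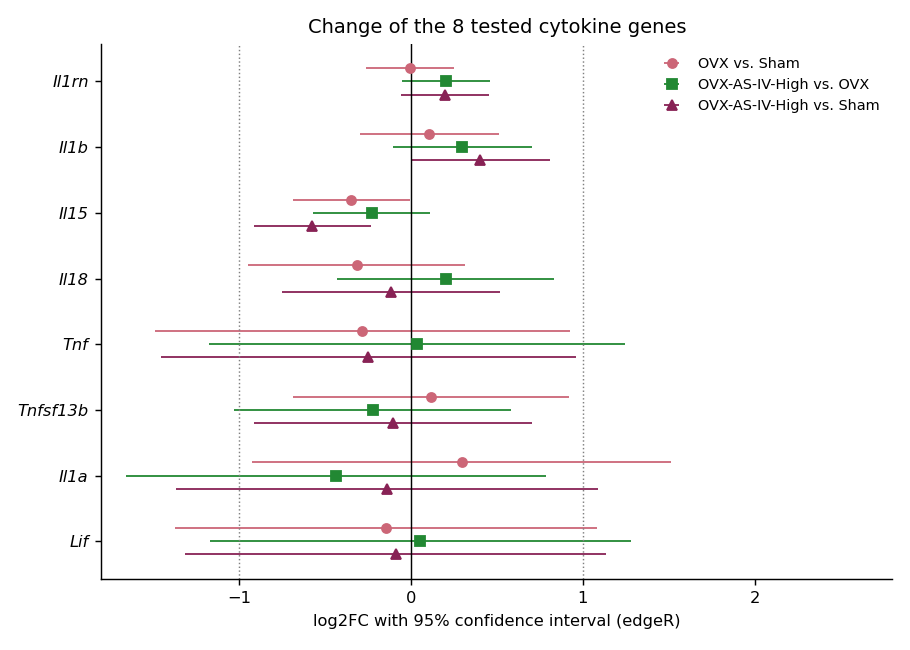
edgeR log2FC (points) and 95% confidence interval (lines) of the 8 tested cytokine genes in OVX vs. Sham, OVX-AS-IV-High vs. OVX and OVX-AS-IV-High vs. Sham; dotted lines mark the threshold of 1. The intervals of Il15 in OVX vs. Sham (-0.68 to -0.01) and of OVX-AS-IV-High vs. Sham (-0.91 to -0.23) lie below 0, and no point reaches the threshold.

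Tnf, the founding member of its family, was low and variable. It had 89, 30 and 25 counts (Sham), 37, 33 and 53 (OVX) and 64, 27 and 33 (OVX-AS-IV-High). The highest value was that of Sham replicate 1, and the groups overlapped. The log2FC was -0.28 (SE 0.54, unadjusted p = 0.611 by edgeR) for OVX vs. Sham and 0.04 (SE 0.54, unadjusted p = 0.948 by edgeR) for OVX-AS-IV-High vs. OVX. Leaving out 1 library at a time moved the OVX vs. Sham value between -0.59 and 0.47, so its direction was not fixed. Its receptors, Tnfrsf1a and Tnfrsf1b, had log2FC of -0.21 and 0.19 for OVX vs. Sham (unadjusted p = 0.0817 and 0.0787 by edgeR), and Adam17, the sheddase that releases Tnf from the membrane, 0.10 (unadjusted p = 0.250).

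Tnfsf13b, the B cell survival factor BAFF, had 31, 38 and 70 counts (Sham), 49, 58 and 52 (OVX) and 46, 53 and 35 (OVX-AS-IV-High). The Sham libraries enclosed those of both other groups. The log2FC was 0.12 (SE 0.36, unadjusted p = 0.748 by edgeR) for OVX vs. Sham and -0.22 (SE 0.36, unadjusted p = 0.549 by edgeR) under the agent. Across the 9 libraries its CPM correlated with the sum of monocyte and macrophage genes (r = 0.82, rho 0.75, deviations from group means 0.80), as a description. It did so too with the osteoblast and osteocyte sum (r = 0.72, rho 0.82, deviations 0.72). With the B lineage sum the values were 0.46, 0.17 and 0.74. Furin, the protease that releases it, had a log2FC of -0.10 (unadjusted p = 0.257 by edgeR) for OVX vs. Sham.

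Although the ligand did not differ detectably, receptors of Tnfsf13b did stand apart. Tnfrsf13c, the BAFF receptor of B cells, had 9.18, 9.86 and 12.4 CPM (Sham), 22.5, 15.4 and 16.3 (OVX) and 10.5, 11.5 and 14.3 (OVX-AS-IV-High). All OVX libraries lay above Sham and above OVX-AS-IV-High. The log2FC was 0.78 (SE 0.20, unadjusted p = 0.00320, adjusted p = 0.152 by edgeR) for OVX vs. Sham and -0.58 (SE 0.20, unadjusted p = 0.0166, adjusted p = 0.664) for OVX-AS-IV-High vs. OVX, and DESeq2 gave adjusted p of 0.0120 and 0.291. Tnfrsf13b, the receptor TACI, had a log2FC of 0.61 (unadjusted p = 0.0274 by edgeR) and Tnfrsf17, that of plasma cells, -0.01 (SE 0.41). The B lineage genes moved with these receptors, with 7 of 10 at an unadjusted p under 0.05 upward in OVX vs. Sham (8.16% of all genes) and 4 of 10 downward for OVX-AS-IV-High vs. OVX (2.03% of all genes), and their part was not tested.

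Il6 had 4 counts or fewer in 8 of 9 libraries. Its counts were 2, 4 and 1 (Sham), 0, 3 and 1 (OVX) and 2, 4 and 21 (OVX-AS-IV-High). Only OVX-AS-IV-High replicate 3 stood clear of the rest. The pooled ratio of OVX-AS-IV-High to OVX was 6.69 with a 95% counting interval of 2.33 to 26.3, but without that library it was 2.21 (0.525 to 10.7). The OVX to Sham ratio was 0.553 (0.119 to 2.18), so a difference between those groups was not detectable at this depth. Such intervals cover counting error only.

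Lif, the other gp130 ligand among the members, had 44, 58 and 192 counts (Sham), 56, 101 and 123 (OVX) and 68, 102 and 116 (OVX-AS-IV-High). Sham replicate 3 exceeded every other library, and the other Sham values were among the lowest 3 of the 9. The log2FC was -0.14 (SE 0.54, unadjusted p = 0.797 by edgeR) for OVX vs. Sham and 0.06 (SE 0.54, unadjusted p = 0.921 by edgeR) under the agent, and the former became 0.79 without Sham replicate 3. That library also had the highest monocyte and macrophage sum, 1075 CPM against 617 to 936 elsewhere. Across the 9 libraries, r of Lif was 0.87 with this sum, 0.86 with the osteoclast sum and -0.79 with Il1a, and 0.95, 0.93 and -0.87 between deviations from group means. Other sums ran with Lif as well. With skeletal muscle, osteoblast and osteocyte, and B lineage genes r was -0.78, 0.71 and 0.49, and -0.84, 0.86 and 0.83 between deviations. The part of any of these cells in the Lif value was not tested.

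Il6st, the gp130 chain that Il6 and Lif share, had 139, 132 and 114 CPM (Sham), 102, 95.4 and 81.6 (OVX) and 82.7, 94.6 and 82.7 (OVX-AS-IV-High). All 6 ovariectomised libraries lay below Sham. The log2FC was -0.47 (SE 0.12, unadjusted p = 0.00286, adjusted p = 0.151 by edgeR) for OVX vs. Sham, with p under 0.05 in 19 of 19 alternatives and an adjusted p of 0.0150 by DESeq2. The ligand-specific chains Il6r and Lifr had log2FC of 0.01 (unadjusted p = 0.942 by edgeR) and 0.26 (unadjusted p = 0.219).

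Il10, the anti-inflammatory member, had 4, 1 and 2 counts (Sham), 10, 7 and 6 (OVX) and 10, 5 and 14 (OVX-AS-IV-High). All 6 ovariectomised libraries lay above all 3 Sham libraries, which sat at or near the 3 counts taken as the limit (p = 0.0238 by the exact permutation test, two-sided, its smallest value for 6 against 3). The pooled ratio to Sham was 3.18 (95% counting interval 1.32 to 8.78) for OVX and 3.98 (1.71 to 10.8) for OVX-AS-IV-High, and OVX-AS-IV-High to OVX was 1.25 (0.699 to 2.26). Of 1245 genes below the filter with a like number of counts (30 to 120 in all), 1.20% had all 6 libraries above Sham and 2.73% all 6 below. For the 3 OVX libraries alone these shares were 4.98% above and 7.55% below.

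Because Il10 lay below the filter, its test depended on the setting. Without a filter, edgeR gave log2FC of 1.60 for OVX vs. Sham (unadjusted p = 0.0495, adjusted p = 0.382) and 1.97 for OVX-AS-IV-High vs. Sham (unadjusted p = 0.0193), each past both thresholds of a call. It also passed the filter in 7 of the 9 fits that leave out 1 library. As it reached the filter's 10 counts only in ovariectomised libraries, it passed through the groups where it is high, and its calls against Sham in these fits are not support for a difference. The pooled OVX to Sham ratio was 4.93 without Sham replicate 1 and 2.50 without Sham replicate 2. Its receptor chains Il10ra and Il10rb had log2FC of 0.02 and 0.07 for OVX vs. Sham.

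The receptors, decoys and binding proteins of the members formed a list of 20 genes, all tested. In OVX vs. Sham 6 had an unadjusted p under 0.05 upward and 1 downward, against 8.16% and 8.28% of all genes, while 0 were called. Their median log2FC was 0.05, beside -0.01 for all genes. Under the agent, against OVX, the counts were 0 upward and 1 downward, against 4.42% and 2.03%, with a median of 0.00.

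Within it, a decoy and an accessory chain of the interleukin-1 receptor stood apart from Sham. Il1r2, the decoy receptor that binds interleukin-1 without signalling, had 28.1, 30.7 and 33.0 CPM (Sham), 35.9, 40.0 and 41.6 (OVX) and 37.9, 42.1 and 36.1 (OVX-AS-IV-High). Il1rap, the accessory chain that signalling needs, had 13.4, 13.3 and 15.4 CPM (Sham), 18.3, 19.4 and 19.8 (OVX) and 18.8, 24.6 and 20.2 (OVX-AS-IV-High). For both genes all 6 ovariectomised libraries lay above Sham. In OVX vs. Sham the log2FC was 0.36 (SE 0.10, unadjusted p = 0.00648, adjusted p = 0.167 by edgeR) for Il1r2 and 0.45 (SE 0.13, unadjusted p = 0.00646, adjusted p = 0.167) for Il1rap, with p under 0.05 in 19 of 19 alternatives for each. DESeq2 gave adjusted p of 0.0619 and 0.0445. The mature neutrophil sum ran from 11339 to 15940 CPM for Sham and from 12934 to 17917 for OVX, and its part was not tested. Of its 9 tested genes, 1 had an unadjusted p under 0.05 upward, near the 8.16% of all genes.

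The signalling receptor Il1r1 did not share this pattern, with 30.1, 33.1 and 34.4 CPM (Sham), 22.4, 41.4 and 25.2 (OVX) and 20.8, 32.0 and 24.0 (OVX-AS-IV-High). OVX replicate 2 stood above the rest, and the groups overlapped (log2FC -0.13, SE 0.23, unadjusted p = 0.582 by edgeR). The FPKM ratio of decoy to signalling receptor, Il1r2 to Il1r1, was 4.58, 4.55 and 4.70 (Sham), 7.87, 4.74 and 8.10 (OVX) and 8.93, 6.45 and 7.37 (OVX-AS-IV-High). All 6 ovariectomised values lay above Sham, OVX replicate 2 only just so. The exact permutation test, two-sided, gave p = 0.1 for each ovariectomised group against Sham and p = 0.0238 for both together, the smallest values possible, but the ratio was chosen after its values were seen and these are no independent evidence. The other ratios tested, Il1b to Il1rn, Il1a to Il1b and Il18bp to Il18, gave p between 0.1 and 1. For interleukin-18, the receptor chain Il18r1 had 2.39 ± 0.444 CPM for Sham and 3.74 ± 0.714 for OVX (log2FC 0.65, unadjusted p = 0.0309 by edgeR), with p under 0.05 in 5 of the 9 fits that leave out 1 library. The accessory chain Il18rap had 51.1 ± 12.8 CPM for Sham and 43.7 ± 5.67 for OVX (log2FC -0.23, unadjusted p = 0.352 by edgeR). The binding protein Il18bp had a log2FC of -0.06.

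**Figure D5:**
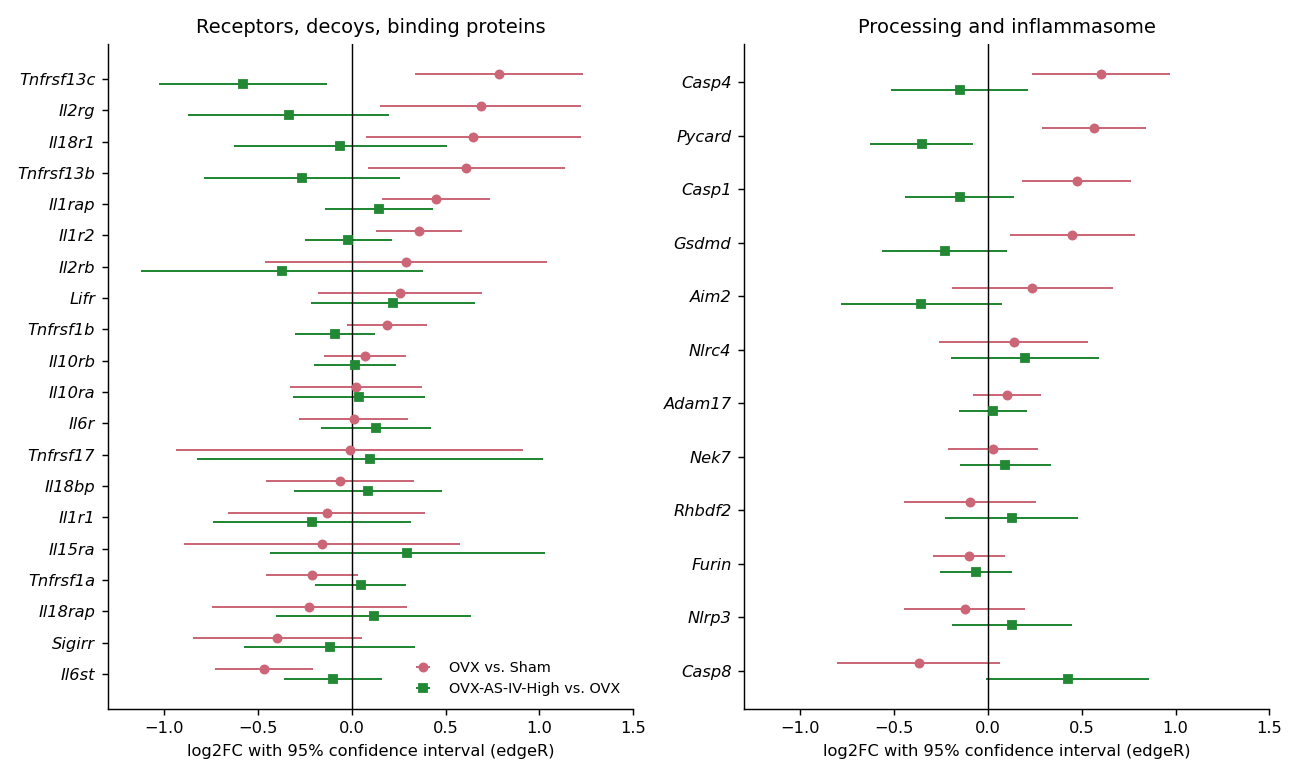
edgeR log2FC (points) and 95% confidence interval (lines) of 20 receptor, decoy and binding protein genes (left) and 12 processing and inflammasome genes (right), in order of OVX vs. Sham. Tnfrsf13c, Il1rap and Il1r2 lie above 0 and Il6st below 0 for OVX vs. Sham, and Pycard and Tnfrsf13c lie below 0 for OVX-AS-IV-High vs. OVX.

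Interleukin-1β and interleukin-18 are made as precursors that caspase-1 cuts once an inflammasome has assembled. Casp1 had 26.8, 30.2 and 32.2 CPM (Sham), 37, 38.5 and 48.2 (OVX) and 33.0, 38.9 and 39.6 (OVX-AS-IV-High). Each ovariectomised library lay above every Sham library. The log2FC was 0.47 (SE 0.13, unadjusted p = 0.00510, adjusted p = 0.163 by edgeR, 0.0406 by DESeq2) for OVX vs. Sham, with p under 0.05 in 19 of 19 alternatives, and -0.15 (SE 0.13, unadjusted p = 0.275 by edgeR) for OVX-AS-IV-High vs. OVX. In the list of 12 processing and inflammasome genes, 4 had an unadjusted p under 0.05 upward in OVX vs. Sham and 0 downward, against 8.16% and 8.28% of all genes. Their median log2FC was 0.12, and 0 were called.

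The other 3 of those 4 were named after their values were seen. Pycard, the adaptor ASC, had 29.2, 33.9 and 39.5 CPM (Sham), 50.1, 46.8 and 54.8 (OVX) and 38.5, 37.5 and 42.7 (OVX-AS-IV-High). All OVX libraries lay above both other groups. The log2FC was 0.56 (SE 0.12, unadjusted p = 0.00120, adjusted p = 0.140 by edgeR, 0.00519 by DESeq2) for OVX vs. Sham and -0.35 (SE 0.12, unadjusted p = 0.0174, adjusted p = 0.667 by edgeR) under the agent. Casp4, the caspase that senses intracellular lipopolysaccharide, and Gsdmd, the pore-forming substrate, had log2FC of 0.60 and 0.45 for OVX vs. Sham (unadjusted p = 0.00466 and 0.0138 by edgeR). The sensor Nlrp3 had 28.5 ± 0.945, 26.2 ± 4.18 and 28.6 ± 4.43 CPM for Sham, OVX and OVX-AS-IV-High (log2FC -0.12 for OVX vs. Sham, unadjusted p = 0.404 by edgeR). The granulocyte progenitor sum, led by Mpo and Elane, ran from 2058 to 2542 CPM for Sham and from 2886 to 3475 for OVX. Of its 7 genes, 3 had an unadjusted p under 0.05 upward, against 8.16% of all genes, and its part in these values was not tested.

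Downstream, 20 transcripts that these cytokines are known to induce were listed, and 1 was called in each of the main comparisons (3.11% of all genes in OVX vs. Sham and 0.83% for OVX-AS-IV-High vs. OVX). Ptgs2, the inducible cyclooxygenase that makes prostaglandins, fell in OVX vs. Sham (log2FC -1.36, SE 0.35, unadjusted p = 0.00329, adjusted p = 0.153 by edgeR) and rose for OVX-AS-IV-High vs. OVX (log2FC 1.61, SE 0.35, unadjusted p = 0.00112, adjusted p = 0.652). Its 3 OVX libraries lay below both other groups. In OVX vs. Sham 3 of the 20 had an unadjusted p under 0.05 upward and 4 downward, against 8.16% and 8.28% of all genes, with a median log2FC of 0.10. Under the agent 2 were upward and 1 downward, against 4.42% and 2.03%, with a median of 0.00. The call of Ptgs2 was lost in each comparison only with limma on log2(FPKM + 1), at -0.71 and 0.83. The OVX libraries serve both comparisons, so the opposite signs are not independent of each other.

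Values for 2 more of these transcripts, singled out after they were seen, ran in different directions. Tnfaip3, the NF-κB inhibitor A20, had a log2FC of 0.60 for OVX vs. Sham and -0.56 under the agent (unadjusted p = 0.0177 and 0.0238 by edgeR). Its CPM was 20.5, 22.6 and 25.3 (Sham), 29.1, 48.1 and 26.2 (OVX) and 23.0, 22.9 and 24.3 (OVX-AS-IV-High), highest in OVX replicate 2. With 1 library left out, the log2FC went as near to no change as 0.28 and -0.24. The edgeR p then stayed under 0.05 in 7 and 6 of 9 fits. Junb, an AP-1 subunit, had log2FC of -0.39 and 0.41 in these comparisons (unadjusted p = 0.0112 and 0.00836 by edgeR). Of the 21 signal transducers, 2 had an unadjusted p under 0.05 upward and 2 downward in OVX vs. Sham, near the 8.16% and 8.28% of all genes, and 0 in either direction for OVX-AS-IV-High vs. OVX.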

How the data were processed

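Poly(A) RNA of 9 bone libraries, described in the study as independent biological replicates, had been sequenced from stranded libraries. The authors aligned reads with Tophat and Bowtie2, quantified genes with eXpress and deposited raw, whole-number gene counts. The authors also deposited FPKM for the same genes, a measure per length and library size. Both tables gave the same gene length within 1% in all 11928 genes with 100 or more counts in each library. The build in the submitters' processing notes is mRatBN7.2. RefSeq promoters are from GRCr8 and were matched by gene ID.

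Counts were tested with edgeR 4.0.16 in R 4.3.3 (quasi-likelihood, TMM, minimum count of 10, all 9 libraries), which kept 16874 genes, with a common biological coefficient of variation of 0.256. A call needed an absolute log2FC over 1 together with an unadjusted p under 0.05, the thresholds used in the study's results. Benjamini-Hochberg adjustment covered all genes tested. The code was checked on simulated data. Alternatives were DESeq2 1.42.0, RLE, other filters, limma 3.58.1 on log2(FPKM + 1) and log2(FPKM + 0.1), a muscle or neutrophil covariate, the replicate block and each library left out. Each covariate was the mean log2 CPM of the tested genes of its list, centred over the libraries, and not the summed CPM. Pooled count ratios have exact 95% intervals. Exact permutation tests were run in Python 3.11.15 with scipy 1.17.1, and plots drawn with matplotlib 3.10.9.

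The members and gene lists were chosen with earlier results of these data known. Named beside the members were listed genes called in OVX vs. Sham or OVX-AS-IV-High vs. OVX, the receptors and maturing enzymes of named members, the 3 genes most like each of the 3 members with the highest FPKM, and the 2 leading genes of a cell type list. Deviations from the group means correlated positively between same-numbered OVX and OVX-AS-IV-High libraries (r = 0.310, 0.158 and 0.130), and the numbers were treated as pairing them. Those of Sham were mixed in sign with OVX (0.200, -0.161 and 0.253) and OVX-AS-IV-High (0.314, -0.158 and 0.435) and were not treated so. The titles give only a replicate number, and libraries of different number were not correlated. A pairing is therefore assumed and not established.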

Additional observations from a re-analysis of the deposited data

How the results depend on the processing

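With 3 libraries a group, Il6 and Il10 rest on a few counts. Against Sham, the signs of Tnf, Il1a, Tnfsf13b and Lif changed when 1 library was left out. So did those of Il1b and Il1rn in OVX vs. Sham, and that of Il18 in OVX-AS-IV-High vs. Sham. Il15 was negative against Sham under every alternative. Il10 was positive in the 8 alternatives that gave it a value. In 7 of these it passed the filter only through ovariectomised libraries, so its direction there is not support for a difference. Of the values of named genes, 959 kept direction and side of the threshold, 9 lost it, 3 gained it and 61 changed sign; the causes were not tested.

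Called members were 0 under all alternatives but these: without a filter, 1 in each of the 4 comparisons (Il6 for OVX-AS-IV-High vs. OVX, Il10 elsewhere), and 0 to 1 (Il10, which passes the filter only through ovariectomised libraries) when 1 library was left out, in all but OVX-AS-IV-High vs. OVX. All genes called in OVX vs. Sham numbered 791 without a filter, 342 at 1 CPM or more in 3 libraries, 75 and 315 with limma on log2(FPKM + 1) and log2(FPKM + 0.1), and 800 with the neutrophil covariate. In the same order they were 274, 82, 13, 80 and 179 for OVX-AS-IV-High vs. OVX. Against Sham, again in that order, OVX-AS-IV-High had 769, 337, 84, 353 and 1088. Both groups had 934, 371, 74, 310 and 1095, and 371 with the muscle covariate. The filters test fewer or more genes by construction.

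Leaving out 1 library gave 387 to 1064 (without Sham replicate 3), 141 to 219 (without OVX-AS-IV-High replicate 1), 409 to 940 (without OVX-AS-IV-High replicate 1) and 406 to 1056 (without Sham replicate 3) called genes in the 4 comparisons. In OVX vs. Sham the log2FC then ran from -0.59 to 0.47 for Tnf, -0.16 to 0.84 for Il1a, -0.00648 to 0.29 for Il1b, -0.0693 to 0.0526 for Il1rn, -0.12 to 0.54 for Tnfsf13b and -0.51 to 0.79 for Lif. For OVX-AS-IV-High vs. OVX it ran from -0.43 to 0.27 for Tnf, -0.0487 to 0.46 for Il18 and -0.20 to 0.31 for Lif. For OVX-AS-IV-High vs. Sham it ran from -0.71 to 0.52 for Tnf, -0.60 to 0.41 for Il1a, -0.36 to 0.14 for Il18, -0.33 to 0.31 for Tnfsf13b and -0.44 to 0.84 for Lif. For both groups vs. Sham it ran from -0.57 to 0.50 for Tnf, -0.38 to 0.63 for Il1a, -0.23 to 0.43 for Tnfsf13b and -0.47 to 0.81 for Lif.

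Signs that changed elsewhere were these. With limma, Il1rn was 0.0169 and 0.0176 in OVX vs. Sham and Tnf -0.0124 and -0.0551 for OVX-AS-IV-High vs. OVX; at 0.1, Lif was 0.0659, 0.11 and 0.0863 and Il1a 0.10 against Sham. With the muscle covariate, Tnf was 0.19, 0.29 and 0.24 in the comparisons with Sham, Il1rn 0.0657 in OVX, Il1a 0.48 in OVX-AS-IV-High and Tnfsf13b -0.0794 in both groups, and Lif was -0.0722 for OVX-AS-IV-High vs. OVX. With the neutrophil covariate, Lif was 0.33, 0.71 and 0.52 in the comparisons with Sham, Il1rn -0.0244 and -0.0536, Tnfsf13b 0.24, Il1a -0.30, and Tnf -0.68 for OVX-AS-IV-High vs. OVX.

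With the replicate block, called genes were 705, 153, 711 and 726 in the 4 comparisons and called members 0. Numbers were assumed to pair OVX with OVX-AS-IV-High. There Tnf became -0.11 and, within those libraries alone (an alternative added after seeing the data), -0.0248, with 154 genes and 0 members called. No pairing was assumed with Sham. In the comparisons with Sham, Lif became 0.0313, 0.13 and 0.0829, Il1a 0.0133 in OVX-AS-IV-High, and the p of Il15 in OVX vs. Sham 0.0619 by edgeR.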

Other observations

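Other cytokine ligands were read from a list of 47 genes, of which 42 were in the tables, 26 were tested and 6 had 3 counts or fewer in every library. In OVX vs. Sham 0 of the 26 had an unadjusted p under 0.05 upward and 5 downward, against 8.16% and 8.28% of all genes tested, with a median log2FC of -0.21. Of the 26, 1 gene was called (3.11% of all genes), Tnfsf15, a ligand of the death receptor Tnfrsf25. It had 1.21, 1.85 and 1.61 CPM (Sham), 1.06, 0.501 and 0.624 (OVX) and 0.551, 0.379 and 0.797 (OVX-AS-IV-High). Its 3 OVX libraries lay below Sham, with a log2FC of -1.09 (SE 0.41, unadjusted p = 0.0258, adjusted p = 0.243 by edgeR), and it was called in 12 of 19 alternatives. Osm, a gp130 ligand singled out after its values were seen, had 16.5, 18.0 and 15.2 CPM (Sham), 7.82, 9.21 and 8.30 (OVX) and 17.8, 11.7 and 12.7 (OVX-AS-IV-High). The OVX libraries lay below both other groups. The log2FC was -0.97 (SE 0.18, unadjusted p = 3.47e-04, adjusted p = 0.120 by edgeR, 2.27e-04 by DESeq2) in OVX vs. Sham and 0.74 (SE 0.18, unadjusted p = 0.00230, adjusted p = 0.652 by edgeR, 0.0613 by DESeq2) for OVX-AS-IV-High vs. OVX. Its p was under 0.05 in all 19 and all 20 alternatives, and both comparisons share the OVX libraries.

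The genes whose CPM pattern was most like that of a member over the 9 libraries, by Pearson's r of log2 CPM, were Cpne3 (0.960), Csnk1a1 (0.958) and Fkbp3 (0.954) for Il1rn. For Il1b they were Zc3h12a (0.925), Epsti1 (0.919) and LOC102555687 (0.906), and for Il15 Sin3b (0.973), Pomgnt1 (0.967) and Numa1 (0.965). These are the extremes of 16874 genes over 9 points and are given as descriptions.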
